A study of Mus musculus with 2 samples.

Results

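The genes described here encode the B cell receptor's signal-transducing chains and the proteins that act closest to them. They are the receptor parts Cd79a and Cd79b, the coreceptors Cd22 and Cd72, the membrane protein gene Ms4a1, the adaptor Blnk, and the kinases Blk, Syk and Btk. A probe was taken for a gene when its RefSeq accession mapped to that symbol. All 9 genes had at least 1 such probe, 11 probes in all, among 20614 genes named on the array.

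The cells came from B-cell acute lymphoblastic leukaemia (B-ALL) in C57BL mice aged 8 weeks, sorted from bone marrow by the F405/F488 fluorescence ratio of SoNar, a genetically encoded sensor that follows the cytosolic NADH to NAD+ ratio. The groups were SoNar-high and SoNar-low, each with 1 Cy3-labelled Agilent array of total RNA. The sample titles read N-myc-high and N-myc-low. The sources used here do not give how that naming relates to the sort, which construct the leukaemia carried, or how many mice were used. One array per group leaves no spread between samples to compare with, so differences are described without a test and their precision is limited by the number of arrays. The scans were made in separate sessions, and session and group cannot be told apart.

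On a B cell, antigen is bound by membrane immunoglobulin, and the signal is carried into the cell by its partners Ig-alpha and Ig-beta, the products of Cd79a and Cd79b. Src family kinases such as Blk phosphorylate their tails, Syk docks there, and Syk phosphorylates the adaptor Blnk, which brings Btk to its substrate phospholipase C gamma. Cd22 and Cd72 restrain this signal by recruiting the phosphatase encoded by Ptpn6. Earlier in development the pre-B receptor uses the same signalling parts with a surrogate light chain, which is why the pathway is followed in B-lineage leukaemia.

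Cd22 was the one member at least 2-fold higher on the SoNar-high array, and no member was at least 2-fold lower. Blnk, Ms4a1 and Syk had the lowest differences, and the receptor parts Cd79a and Cd79b lay close to the bulk of genes. All 11 probes were well above background on both arrays and none was saturated. The dimmest member signal was 18.5 times the lowest detected signal of the SoNar-high array and, for SoNar-low, 6.70 times it.

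Upstream sequence is shown for the member past 2-fold (Cd22), for Blnk, one of the lowest and for a receptor part (Cd79a). Each line gives the 250 bases before a RefSeq transcript start in GRCm38.p6, 5′ to 3′ on the strand of the gene. They lie at chr7:30879029-30879278 (minus strand), chr19:40994222-40994471 (minus strand) and chr7:24897247-24897496 (plus strand). Capitals mark matches, on either strand, to the EBF palindrome (TCCC and GGGA with any 2 bases between), the octamer ATGCAAAT bound by OCT factors, and the E-box CANNTG.
Cd22: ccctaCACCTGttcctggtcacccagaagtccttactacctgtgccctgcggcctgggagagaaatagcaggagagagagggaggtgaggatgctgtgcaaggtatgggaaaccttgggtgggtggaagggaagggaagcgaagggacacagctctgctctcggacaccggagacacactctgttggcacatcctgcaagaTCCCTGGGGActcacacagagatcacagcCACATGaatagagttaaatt
Blnk: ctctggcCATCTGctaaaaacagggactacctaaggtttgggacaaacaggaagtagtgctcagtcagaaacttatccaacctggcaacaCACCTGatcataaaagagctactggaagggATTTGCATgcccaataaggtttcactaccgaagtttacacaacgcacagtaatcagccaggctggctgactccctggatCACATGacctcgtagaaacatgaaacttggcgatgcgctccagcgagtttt
Cd79a: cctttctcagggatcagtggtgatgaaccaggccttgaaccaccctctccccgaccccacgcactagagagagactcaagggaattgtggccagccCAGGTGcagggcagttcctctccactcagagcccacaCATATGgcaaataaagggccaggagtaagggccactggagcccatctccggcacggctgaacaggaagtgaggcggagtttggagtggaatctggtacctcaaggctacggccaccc

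Of the 9 members, 6 had a promoter entry, and these gave 7 windows in all. The Cd22 window held the EBF palindrome, TCCCTGGGGA, starting 49 bases before the transcript start. That motif was found in 0.779% of 32851 windows of the same length. The Blnk window held the octamer as its reverse complement, ATTTGCAT, starting 130 bases before the start, and 1.6% of windows held that motif. E-boxes occurred in each of the 7 windows and in 66.2% of all windows. No marked match overlapped another. These matches describe letters in the windows and say nothing of binding.

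Levels are given as the processed signal, the background-subtracted fluorescence of a spot, followed by the log2 difference, SoNar-high minus SoNar-low. For that difference each array was scaled to its 75th percentile, which was a signal of 525 for SoNar-high and 475 for SoNar-low. A log2 difference of 1 is a 2-fold difference. Its median over 10515 genes measured on both arrays was -0.17. In that comparison the share of genes past 2-fold was 4.87% among the higher and 1.68% among the lower, against 1 and 0 of the 9 members. In RNA from a sorted population, fewer cells expressing a gene and less RNA per cell cannot be told apart.

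**Figure D1:**
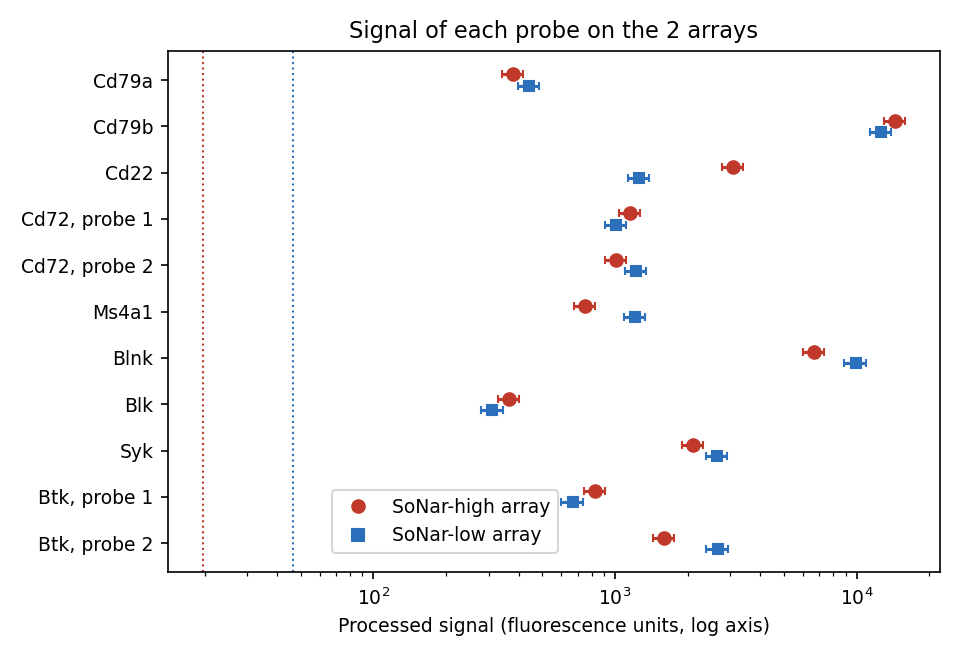
Processed signal of each of the 11 probes (log axis, fluorescence units) on the SoNar-high array (circles) and the SoNar-low array (squares); bars are the scanner software's error estimate for the spot, and dotted lines are each array's lowest detected signal. The Cd22 points are the farthest apart, and the probes of Btk and of Cd72 point in opposite directions.

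The receptor parts showed small differences. Cd79a, which encodes Ig-alpha, had a signal of 379 in SoNar-high and 440 in SoNar-low, and its log2 difference was -0.36. Cd79b, which encodes Ig-beta, had signals of 14376 and 12625, which gave a log2 difference of 0.04. The chains form a heterodimer, and here their differences had opposite signs. Among the measured genes these differences ranked at percentiles 33.8 and 66.1. The software's error estimate for the log2 difference of a member probe was 0.20 to 0.21, so the value of Cd79b is within that error, and that of Cd79a exceeds it by less than 2 times. This estimate covers the spot and not the culture, animal or labelling.

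The coreceptors Cd22 and Cd72 and the membrane protein gene Ms4a1 did not move together. Cd22, a sialic acid-binding lectin that dampens receptor signals, had a signal of 3093 in SoNar-high and 1252 in SoNar-low. It was therefore higher on the SoNar-high array, with a log2 difference of 1.16, or 2.24-fold, and 5.68 times the software's error. Ms4a1, which encodes the membrane protein CD20, went the other way, with signals of 753 and 1208 and a log2 difference of -0.83, or 1.77-fold lower. Cd72, a lectin-like inhibitory receptor, was measured by 2 probes that cite the same transcript. The probe named first by identifier (A_55_P1961270) had signals of 1153 on the SoNar-high and 1007 on the SoNar-low array, and the other (A_55_P2180415) had 1006 and 1220. Their log2 differences were 0.05 and -0.42, and the mean of -0.19 was within 0.02 of the median of all genes.

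Cd22 ranked at percentile 96.3 of all differences. Dim genes spread more widely than bright ones, so it was also set against the 6414 genes at least as bright as the dimmest member level on both arrays. Past 2-fold were 1.87% of these bright genes as higher and 1.15% as lower, and their median log2 difference was -0.27. The middle 90% of them lay between -0.83 and 0.59. Cd22 lay above this range, while the other 8 members lay inside it, Ms4a1 at -0.83 next to its lower end. A middle 90% leaves some genes outside by construction, so 1 member outside it does not by itself set the members apart. Of the bright genes 1.34% were as far from their median as Cd22. Cd22 was the farthest of the members, so this share is not that of a gene picked in advance. The Cd22 value rests on 1 probe, which cites 1 of the 2 curated RefSeq transcripts of the gene.

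**Figure D2:**
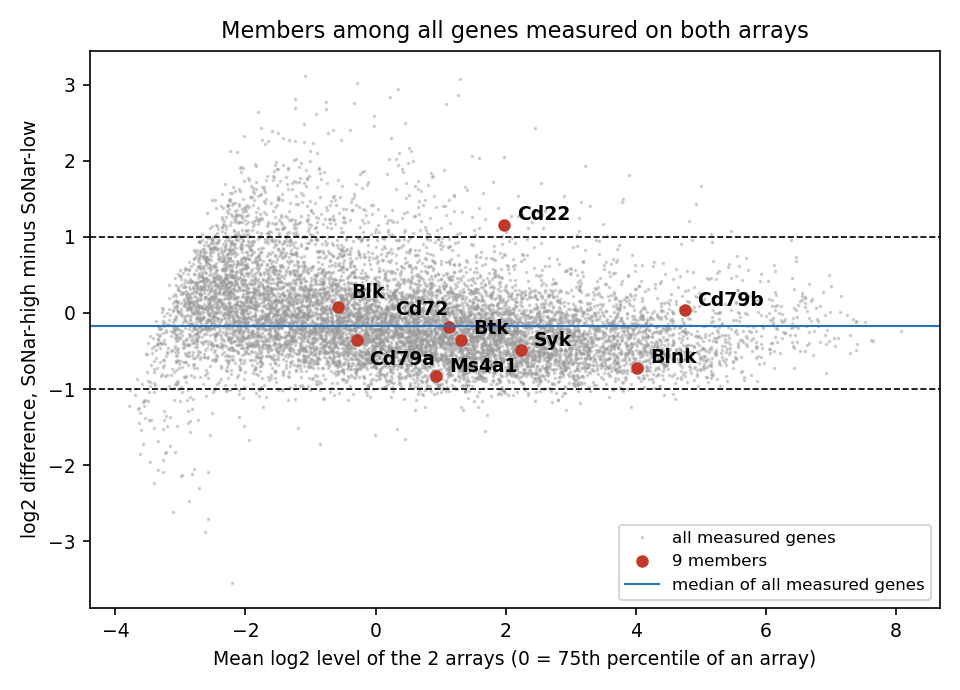
The log2 difference, SoNar-high minus SoNar-low (vertical axis), against the mean log2 level of both arrays (horizontal axis; 0 is an array's 75th percentile) for 10515 genes, with the 9 members in red, dashed lines at a 2-fold difference and a blue line at the median of all genes, -0.17. Cd22 lies above the upper dashed line at 1.16, and the other members lie between 0.08 and -0.83.

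The adaptor Blnk, which links Syk to Btk and phospholipase C gamma, had a signal of 6661 in SoNar-high and 9901 in SoNar-low. Its log2 difference was -0.72, or 1.64-fold lower, at percentile 9.11 of all genes. Of the bright genes 27.3% were as far from their median, so a difference of this size was common on these arrays.

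The kinases differed among themselves by less than Cd22 differed from any of them. Blk, a Src family kinase of B cells, had signals of 364 and 311 on the SoNar-high and SoNar-low arrays and a log2 difference of 0.08. Syk, the kinase that docks on the phosphorylated receptor tails, had signals of 2094 and 2654 and a log2 difference of -0.49. Only the first of these lay above 0, and both were inside the middle 90% of bright genes.

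Btk, the Tec family kinase whose loss causes agammaglobulinaemia in humans, was measured by 2 probes that cite the same transcript, the only curated one of the gene. The first by identifier (A_55_P1953819) had signals of 826 in SoNar-high and 668 in SoNar-low, a log2 difference of 0.16. The other (A_55_P2158498) had 1599 and 2657, a log2 difference of -0.88. The mean was -0.36, but the probes disagreed in sign and by 1.04 on the log2 scale, and neither the direction nor the size for Btk is settled by these arrays.

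Disagreement between probes was common on these arrays. Among 2019 genes with exactly 2 measured probes, the median gap between their log2 differences was 0.43, and in 45.4% the signs were opposite. A gap at least as large as that of Btk occurred in 13.4% of these genes, and one at least as large as the 0.47 of Cd72 in 45.7%. Repeat spots of 1 probe agreed better: over 201 probes spotted repeatedly, the median SD of their log2 differences was 0.15. The 7 members with 1 probe, Cd22 among them, have no second probe to be checked against. The absolute log2 differences of Cd79a, Cd79b and Blk are each smaller than the median gap between 2 probes.

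**Figure D3:**
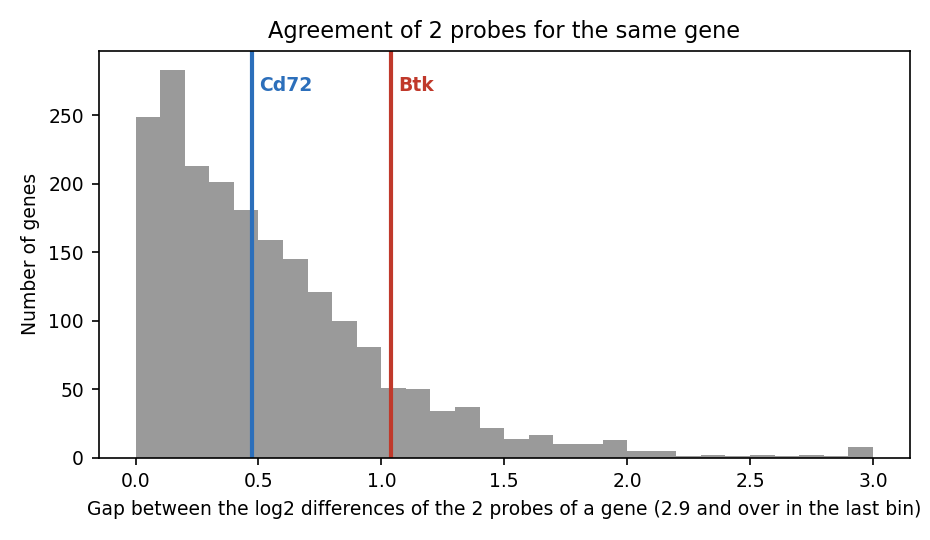
Histogram of the gap between the log2 differences of the 2 probes of a gene (horizontal axis, log2 units) over 2019 genes (vertical axis, number of genes), with lines at Cd72 (0.47) and Btk (1.04). The gap of Cd72 lies near the median of 0.43, and that of Btk lies in the upper part of the distribution.

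The scaling of the arrays moves all members together. Under median scaling all differences drop by 0.61 on the log2 scale, Cd22 falls to 0.55 and so below a 2-fold difference, and Blnk (-1.33), Ms4a1 (-1.44) and Syk (-1.10) pass 2-fold on the lower side. Those 3 of 9 members stand beside 31.4% of all genes that are lower by 2-fold in that setting, with 1.32% higher, so the share of members is near the background. In the other 9 settings tried Cd22 stayed past 2-fold, with values up to 1.38, and no other member was past 2-fold. The filters on dim probes, the brightest probe and the outlier setting could not move Cd22, which has 1 probe, measured on both arrays. They left it at 1.16, so they add nothing to that count. Cd22 exceeded the next highest member by 1.08, and by 0.91 to 1.24 under the alternatives. Median scaling and the percentile of doubly detected spots shift all genes alike, so they cannot change this lead. The filters on dim probes, the brightest probe and the outlier setting also left the lead at 1.08. The settings that moved the lead were quantile normalization (1.24), cyclic loess, normexp (0.91) and the authors' table. The number of members above the median of all genes, 3, ran from 1 to 4 under the alternatives. The members' median less that of all genes, -0.19, ran from -0.50 to -0.016. Cd79a, Ms4a1, Blnk, Syk and Btk were below 0 in each of the 10 alternatives, whereas the signs of Cd79b, Blk and Cd72 changed with the setting. The median of all genes was itself below 0 in most settings. Those always below 0 were also below that median in each alternative, but in the authors' table Btk only by -0.016 and Syk by -0.056. In the authors' deposited table the log2 difference was 1.21 for the Cd22 probe, -0.68 for Ms4a1, -0.55 for Blnk, -0.42 for Cd79a and 0.10 for Cd79b. In the authors' values the share of genes past 2-fold was 3.4% among the higher and 4.09% among the lower, and Cd22 was again the only member past 2-fold.

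**Figure D4:**
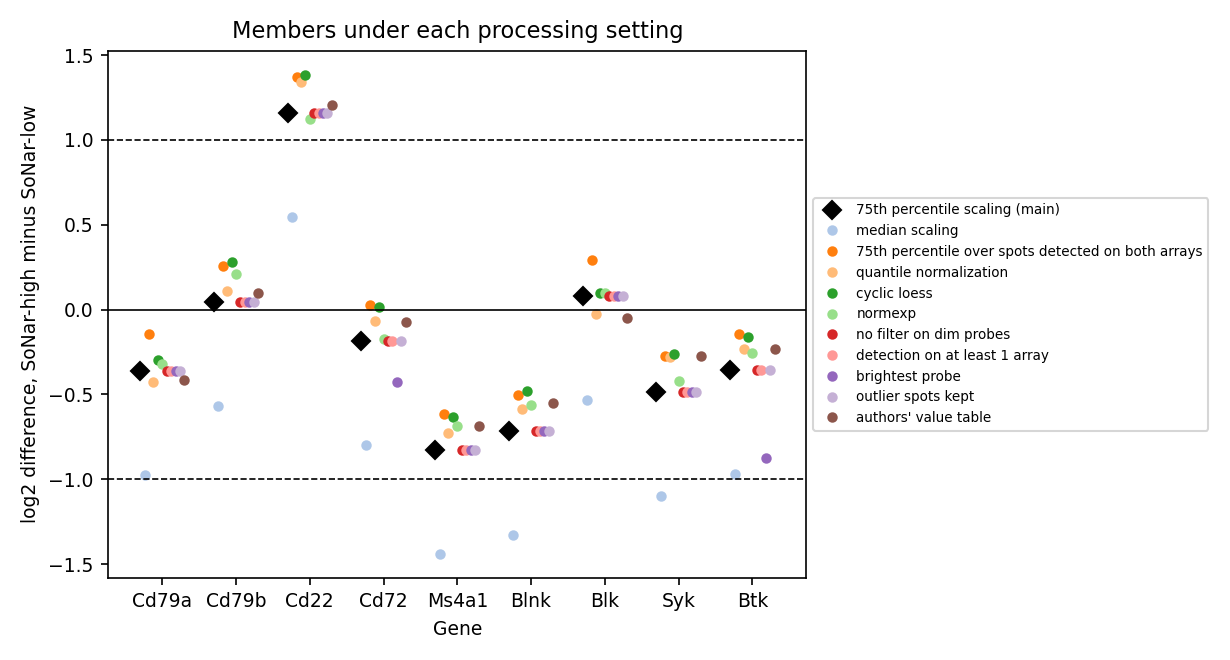
The log2 difference (SoNar-high less SoNar-low) of each member under the main scaling (diamonds) and 10 alternatives (circles), with dashed lines at a 2-fold difference. Cd22 is the highest member in each setting, and median scaling, which lowers all values by 0.61, gives the lowest point of every gene.

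The median log2 difference of the 9 members was -0.36, against -0.17 for all genes and -0.27 for the bright genes. Of the members 3 lay above the median of all genes (Cd22, Blk and Cd79b) and 6 below it. Against the median of the bright genes the split was 4 above and 5 below. The bright genes share only a lower limit of level with the members and were not matched to their brightness. Of the other 87 genes listed for the pathway, 83 had a named probe and 73 were measured on both arrays. Their median was -0.14, with 1 past 2-fold as higher and 0 as lower, beside the 4.87% and 1.68% of all genes given above.

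That 1 gene was Pik3cd, the lymphocyte catalytic subunit of phosphoinositide 3-kinase, at 1.08. It was the mean of 3 probes, of which 1 had signals of 2529 in SoNar-high and 304 in SoNar-low, a log2 difference of 2.91. The other probes had log2 differences of 0.15 and 0.19, so the call rests on 1 of its 3 probes, and with the brightest probe alone Pik3cd was at 0.19. The next highest pathway genes were Ppp3cb, a catalytic subunit of the phosphatase calcineurin, at 0.78 and the inhibitory collagen receptor gene Lair1 at 0.78. The lowest were Lck, a Src family kinase, at -0.94, the adaptor gene Nck1 at -0.88 and Rasgrp1, an activator of RAS, at -0.84. None of these 5 reached a 2-fold difference.

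The partners of the members named here, at the surface and inside the cell, did not reach a 2-fold difference. Cd81, a tetraspanin of the B cell surface, had a log2 difference of -0.59. Ptpn6, whose phosphatase is recruited by Cd22 and Cd72, was at 0.42, and Inpp5d, a lipid phosphatase that also restrains the receptor, at -0.50. Cd81, Ptpn6 and Inpp5d lay outside the 25th to 75th percentiles of all genes, -0.47 to 0.20. The phosphatases and other inhibitors had a median of -0.08 over 11 genes, and the surface regulators one of -0.06 over 10, with 0 past 2-fold in either. Plcg2, the phospholipase downstream of Btk and Blnk, was at -0.37. The phospholipase and calcium arm had the lowest median of the groups, -0.40 over 14 genes, and Ppp3cb was its highest member. The adaptors and exchange factors had a median of -0.15 over 11 genes, the arm of RAS, RAC and MAP kinases one of -0.13 over 11, the PKC and NF-kB arm one of -0.27 over 6, and the phosphoinositide 3-kinase and AKT genes one of -0.10 over 5. The other Src and Tec family kinases had a median of -0.37 over 3 genes, and the surrogate light chains one of -0.27 over 2. These partner genes were named for their place beside the members, with their values in view. Among the pathway genes with several measured probes, 12 of 23 had probes of opposite sign.

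**Figure D5:**
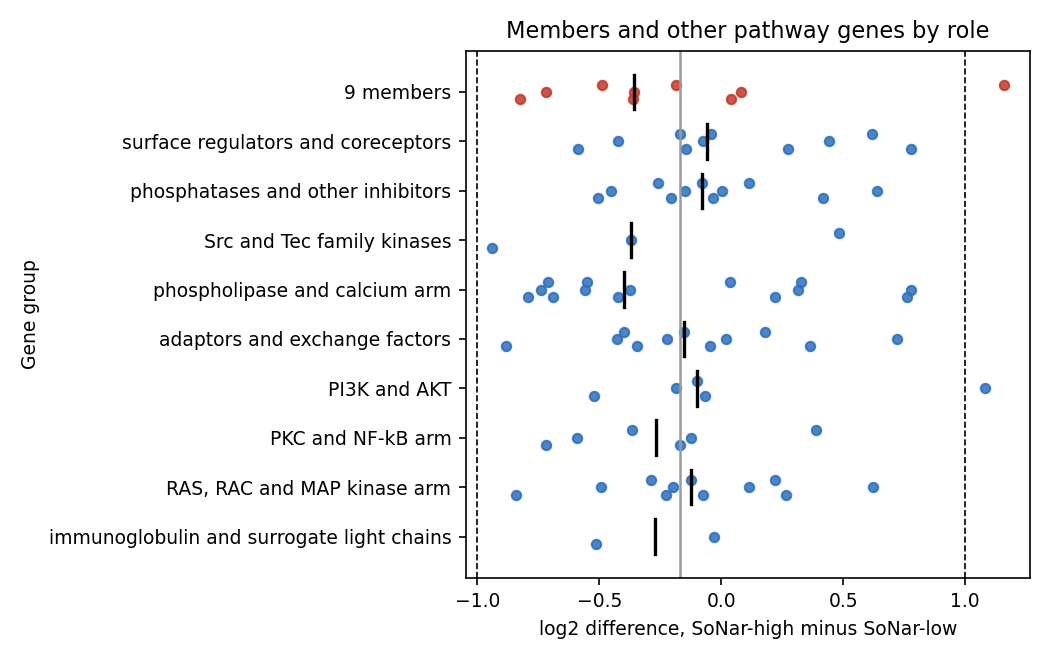
The log2 difference (SoNar-high less SoNar-low) of the 9 members (red) and of 73 other pathway genes by role (blue); black bars are group medians, the grey line is the median of all genes and dashed lines mark a 2-fold difference. Cd22 (1.16) and Pik3cd (1.08) are the points past the upper dashed line.

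Several receptor components were dim or not measured. Lyn, the Src family kinase best known for starting receptor signals, passed detection in SoNar-high alone, with signals of 49.3 and 42.1. The limits of detection were 19.7 on the SoNar-high and 46.4 on the SoNar-low array, so this does not show a difference. In all, 7 of the 83 pathway genes, or 8.43%, passed detection in SoNar-high alone and 0 in SoNar-low alone. Over all 20614 named genes the counts were 5453, or 26.5%, and 11, so the one-sided split was general to these arrays. For 0 of the 7 did the bound reach 2-fold, the largest being Vpreb2 at 1.72-fold, whereas 5.67% of all genes with detection in SoNar-high alone had a bound of 2-fold or more. The bound sets the scaled SoNar-high level against the lowest level detected in SoNar-low, or the gene's own level there if higher. The immunoglobulin genes Ighm, Igkc, Iglc1 and Iglc2 had no probe named by this route and were not analysed here. Of the surrogate light chain genes, Vpreb1 had a log2 difference of -0.03 and Vpreb3 one of -0.51, while Igll1 was not well above background on either array.

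The B-lineage label was checked against 12 markers, of which 9 were measured on both arrays, with a median log2 difference of -0.18. Values ran from -0.92 for Ebf1 to 0.27 for Ptprc. Igll1, Rag1 and Il7r, which mark early B cell stages, failed detection on both arrays. Other early-stage genes of the list were measured on both, so such markers were not absent as a set. Their SoNar-high and SoNar-low signals were 9345 and 12061 for Vpreb3, 128 and 118 for Vpreb1, and 169 and 182 for Dntt. The summed signal of the B-lineage list was 38824 on the SoNar-high and 44157 on the SoNar-low array. Markers of other marrow cells were also present. Their summed signals are unscaled, and the 75th percentile of the SoNar-high array was itself 1.11 times that of the SoNar-low array. Of 12 neutrophil markers 11 were measured, 10 of them above the median of all genes, from -0.32 for Prtn3 to 1.29 for Ngp. Their median was 0.48, which falls below 0 under median scaling. The list's summed signal was 25041 on the SoNar-high and 18127 on the SoNar-low array. Dendritic cell markers, 2 of 6 measured, summed to 21989 and 10761, mostly from Siglech at 0.96. Flt3, the other measured one, was at -0.16, and Itgax and Xcr1 failed detection on both arrays.

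The remaining lists were dimmer. Erythroid markers (2 of 8 measured, Hba-a1 at 1.88 and Ermap at 1.67) summed to 1390 and 416. Natural killer markers (3 of 6 measured, from 0.99 for Nkg7 to 1.22 for Prf1) summed to 1469 and 666. T cell markers (4 of 8, from -0.63 for Cd2 to 1.72 for Cd4, with Cd3d not well above background) summed to 1869 and 1164. Stromal and endothelial markers (4 of 6, from 0.31 for Pecam1 to 1.54 for Kdr) summed to 1468 and 741. Monocyte markers (2 of 8, Csf1r at 1.25 and Adgre1 at 0.37) summed to 515 and 235. Plasma cell markers (4 of 6, from -0.55 for Xbp1 to 1.48 for Prdm1) summed to 1376 and 1243, a ratio close to that of the array percentiles. Most of these values move in the direction of Cd22 and against those of Ms4a1 and Blnk, and their part in those differences was not tested. Dimmer genes in general were more often higher: 4.87% of all measured genes were past 2-fold as higher, against 1.87% of the bright genes. Detection in SoNar-high alone held for 26.5% of all named genes, and in SoNar-low alone for 0.0534%. Median scaling lowers each measured marker value by 0.61.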

How the data were processed

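Processing started from the deposited scanner files, 1 per group, grouped by the source names in the labels. Per the file headers, Agilent Feature Extraction 11.0.1.1 made their linear spot intensity values, subtracting background and detrending inside each array; the submitters' processing notes give version 9.1. The authors' deposited table is in log2, with a median of 5.90 in both columns. Its columns share their quantiles, and the sources used here give no further steps. It served as an alternative and correlated with the scaled arrays across probes with r = 0.995 and 0.994.

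Of 43020 non-control spots, 72.9% in SoNar-high and 44.8% in SoNar-low were well above background. After removing 685 outlier spots, log2 signals were reduced by each array's 75th percentile and averaged per probe. A probe counted as measured when over 50% of its spots were detected on both arrays. Each gene took the mean of its measured probes, and a call was an absolute log2 difference of at least 1. RefSeq accessions named 27109 of 39085 probes. The array annotation is of mm9, so only the coordinates of the promoter windows, of GRCm38.p6, are given.

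Members, lists and the naming rule (all members, pathway genes past 2-fold, the 3 highest and 3 lowest pathway genes, and the highest and lowest marker of a list, some of which are not reported here) were chosen with earlier results of these data known. The roles were assigned to the listed genes after the files were seen. The software's errors of both spots were combined in quadrature on the log2 scale. Calls were checked on simulated data. The 10 alternatives cover scaling, normexp with an offset of 50, filters on dim probes, the brightest probe, outlier spots and the authors' table. Python 3.11.15, numpy 2.4.6, pandas 2.3.3, matplotlib 3.10.9, R 4.3.3 and limma 3.58.1 were used.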

Additional observations from a re-analysis of the deposited data

How the results depend on the processing

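No paired analysis was possible because SoNar-high and SoNar-low had 1 array each, and leaving out an array would leave no comparison. The number of members at least 2-fold higher, 1, was 0 with median scaling and 1 in the other 9 alternatives. The number at least 2-fold lower, 0, was 3 with median scaling and 0 in the other 9. The filters on dim probes and the outlier setting cannot change the members, whose probes were all measured and kept. The members' median log2 difference of -0.36 was -0.97 with median scaling, -0.15 with the percentile of doubly detected spots, and -0.16 with cyclic loess, and moved by less than the repeat-spot SD of 0.15 in the other 7. Median scaling and the other percentile shift all genes alike, and for cyclic loess the cause was not tested.

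Among the other pathway genes the count higher, 1, was 0 with median scaling and with the brightest probe, 2 with cyclic loess (Pik3cd and Ppp3cb), and 4 with no filter on dim probes or with detection on at least 1 array (Cr2, Pik3cd, Vav3 and Vpreb2). The count lower, 0, was 21 with median scaling, 1 (Nck1) with quantile normalization, cyclic loess and the authors' table, and 2 (Igll1 and Sos1) with no filter. Looser filters admit dim genes by construction. Their median of -0.14 was -0.76 with median scaling and 0.070 with the percentile of doubly detected spots.

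Over all genes the counts of 512 higher and 177 lower were 139 and 3306 with median scaling, 385 and 350 with quantile normalization, 464 and 300 with cyclic loess, 262 and 60 with normexp, 2775 and 1751 with no filter, 3203 and 174 with detection on at least 1 array, 358 and 430 in the authors' table, and 806 and 67 with the percentile of doubly detected spots. The share of calls on the higher side, 74.3%, was 4.03% with median scaling. Dim probes on the SoNar-low array limit what can be said of Lyn and Vpreb2.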
